A study of Mus musculus with 150 samples.

Results

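Mouse embryonic stem cells that carry a castaneus and a 129 copy of each chromosome were edited so that a pair of stretches of chromosome 8 was missing, and the time at which each copy replicates was measured along the chromosome. The clones described here, RexTrim D3 and RexTrim D8, have both deletions: the Trim deletion, chr8:43176771-43181949 (5.18 kb), and the Rex1 deletion, chr8:43302260-43332339 (30.1 kb), which lie 120.3 kb apart (mm10). They supply 4 of the 150 samples of the series, an early and a late S-phase fraction for each clone, and 2 of its 75 profiles. Each clone has 1 column of scores for the svim allele and 1 for the CAST allele, and the quantity followed is svim minus CAST within a clone, over chr8:42-45 Mb and over the whole chromosome.

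RexTrim (D3 and D8) was set against clones of the same hybrid cas/129 stem cells with a single deletion: Trim (D9 and E9), which lack the Trim stretch alone, and Rex1 (D1 and E3), which lack the Rex1 stretch alone. All 6 clones were grown in DMEM with 2i plus LIF and edited with CRISPR. The deletion is described at the level of the clone, and the labels do not name the copy that carries it. No profile of unedited chromosome 8 was analysed here, so the CAST copy of the same cells is the internal comparison. The copies come from different strains, and they also differed far from the deletions, as given below. The CAST column of RexTrim D8 had no score inside the Trim deletion, so that copy may not be intact there, which was not tested. Each line is 1 clone and nothing in the labels says whether clones of a genotype came from separate editing experiments. The limma p-values below therefore rest on the spread between these clones. In limma the variance of each window, region or gene is also moderated towards that of all of them.

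Replication timing is the order in which stretches of the genome are copied during S phase. Neighbouring origins fire at similar times and form domains, early ones generally in open, gene-active chromatin and late ones in closed chromatin, and many domains switch between early and late as cells differentiate. In Repli-seq, cells are given the thymidine analogue BrdU, sorted by DNA content into an early and a late fraction, and the newly made DNA of each is sequenced. Here the pulse was 2 h. The score compares both fractions, with higher values for earlier replication. Rex1 is the common name of the product of Zfp42, a zinc finger protein used as a marker of naive pluripotency. Its neighbours Triml1 and Triml2 encode proteins of the tripartite motif family, and on the other side of Zfp42 lies a cluster of ADAM genes, membrane-anchored proteases expressed in testis.

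Both deletions reach into annotated genes. The Rex1 deletion covers 4.75 kb of Zfp42 (chr8:43295067-43307009), and the Trim deletion covers 3.72 kb at the right end of Triml1 (chr8:43129806-43180494) and 1.49 kb of Triml2 (chr8:43180463-43193884). The promoters below, from 250 bases before to 50 bases after the start site and written 5′ to 3′ on the gene's strand, come from RefSeq (GRCm38.p6) and matched all 3 genes by symbol. They are shown because the first lies inside the Rex1 deletion (chr8:43306960-43307259, minus strand), the second lies inside the Trim deletion (chr8:43180286-43180585, plus strand) and the third, 35.0 kb from the nearer deletion, lies in neither (chr8:43141437-43141736, minus strand). Triml1 is on the minus strand, so the right end of its annotated span, which the Trim deletion removes, is the 5′ end. The window printed for it belongs to a start site within that span, downstream of the 5′ end. Capitals mark the octamer ATTTGCAT, which POU factors such as OCT4 recognise, and the CCAAT box CCAAT, each searched on both strands (ATGCAAAT and ATTGG).
Zfp42: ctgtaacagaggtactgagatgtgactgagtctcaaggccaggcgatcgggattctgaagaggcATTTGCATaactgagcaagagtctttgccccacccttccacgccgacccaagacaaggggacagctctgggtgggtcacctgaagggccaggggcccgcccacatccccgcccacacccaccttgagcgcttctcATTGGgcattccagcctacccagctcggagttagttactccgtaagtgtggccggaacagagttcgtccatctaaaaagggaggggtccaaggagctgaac
Triml2: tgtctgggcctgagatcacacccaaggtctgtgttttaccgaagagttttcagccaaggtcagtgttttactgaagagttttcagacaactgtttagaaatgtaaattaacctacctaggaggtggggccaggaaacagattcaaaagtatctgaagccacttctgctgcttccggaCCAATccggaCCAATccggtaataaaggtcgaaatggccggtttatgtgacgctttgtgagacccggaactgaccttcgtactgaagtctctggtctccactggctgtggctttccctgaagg
Triml1: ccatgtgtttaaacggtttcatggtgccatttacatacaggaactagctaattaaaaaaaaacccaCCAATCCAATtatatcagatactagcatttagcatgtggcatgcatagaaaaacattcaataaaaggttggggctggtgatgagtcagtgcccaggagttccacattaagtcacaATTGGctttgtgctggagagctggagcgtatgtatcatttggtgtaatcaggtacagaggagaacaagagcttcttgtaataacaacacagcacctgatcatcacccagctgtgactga
The Zfp42 window held the octamer and 1 CCAAT box, the Triml2 window held 2 CCAAT boxes, and the Triml1 window held 3. Of 32851 mouse promoters of this length, 1.74% held the octamer, 37.4% held a CCAAT box and 11.7% held at least 2 CCAAT boxes. These matches are a description of the letters and say nothing on binding.

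Scores stood at 25880 positions 5 kb apart, 25216 of them with a value in every column outside the deletions. The 12 columns shared an interquartile range of 4.60, and their medians lay between -1.24 and 0.03. All 7 measured early control genes, of 8 listed, scored above 1.07 in every column, while 5 of the 6 late control genes scored below 0; the sixth, Dlc1, scored between 0.98 and 2.09 and is early in these cells. At the 7 positions inside the deletions (1 in Trim, 6 in Rex1), both RexTrim clones had no svim score at any, whereas the CAST column of D3 had all of them and that of D8 lacked 1, the position in the Trim deletion. In each single-deletion clone the svim column had no score inside that clone's own deletion and had one at every position of the other. These 7 positions were left out of all that follows, which leaves 594 between 42 and 45 Mb. The number of reads behind a score is unknown.

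On the svim copy, the early peak around Zfp42 was missing from both RexTrim clones. Over the domain that spans both deletions with 100 kb on either side (64 scored positions), the svim copy scored -2.60 in D3 and -2.94 in D8, and the CAST copy scored 1.38 in D3 and 0.69 in D8. The svim copy therefore replicated later than the CAST copy of the same cells in both clones. The mean was -2.77 ± 0.24 for svim and 1.04 ± 0.48 for CAST (SD, n = 2 clones). The within-clone difference was -3.98 in D3 and -3.64 in D8, a mean of -3.81 with a standard error of 0.28 and a 95% interval of -4.44 to -3.18 (limma, adjusted p = 3.93e-05 over all windows and regions of the chromosome).

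Within the domain the svim scores were flat. They ran from -2.84 to -2.50 over the 64 positions in D3 and from -3.18 to -2.85 in D8, with every position below 0, while the CAST scores ran from 0.34 to 1.85 in D3 and from -0.03 to 1.18 in D8. Over the left flank, from 42 Mb to the domain, the svim copy scored -2.76 in each of D3 and D8, so that the domain stood only 0.16 above its flank in D3 and 0.18 below it in D8. The CAST copy of the domain stood 3.53 above its flank in D3 and 2.66 above it in D8. In rank terms, the domain mean exceeded 25.1% of chromosome 8 positions for svim in D3 and 18.1% in D8, against 65.0% for CAST in D3 and 56.2% in D8.

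**Figure D1:**
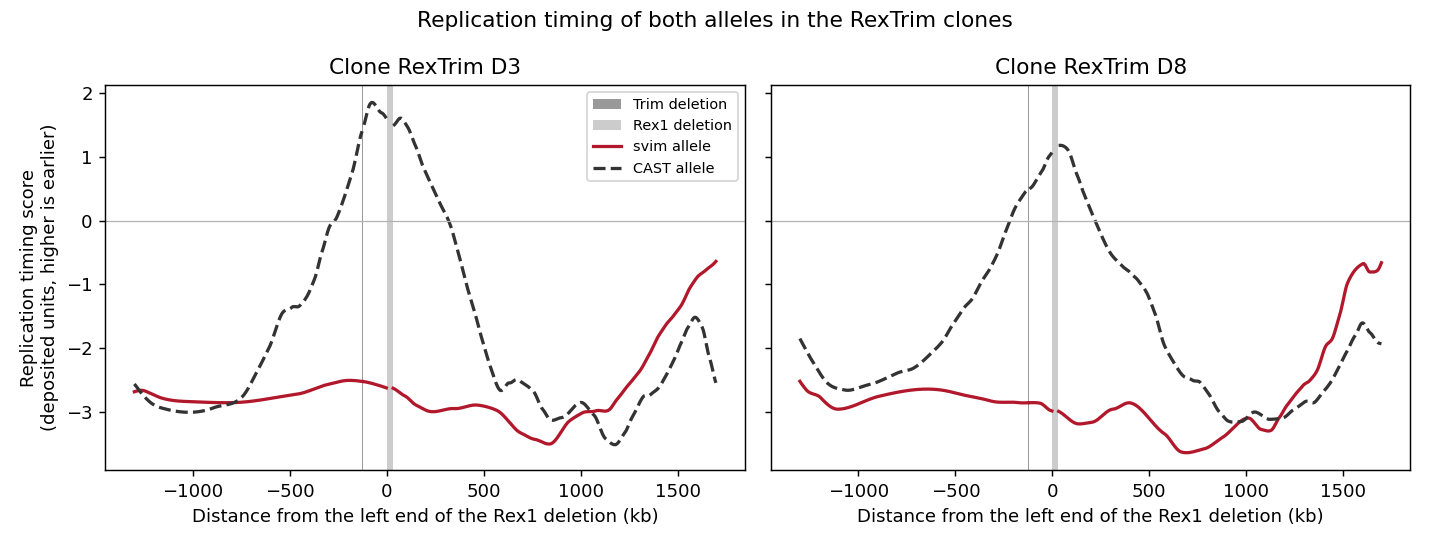
Replication timing score (vertical axis, deposited units, higher is earlier) of the svim and CAST alleles of clones RexTrim D3 and RexTrim D8, against the distance in kb from the left end of the Rex1 deletion. The grey bands are the 2 deletions. The svim line stays below -2.5 across the domain in both clones while the CAST line rises above 0, to 1.85 in D3 and 1.18 in D8.

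The difference was present on both sides of the deletions and between them. In the 100 kb to the left of the Trim deletion svim minus CAST was -3.35 in D3 and -3.12 in D8, in the 120.3 kb between the deletions it was -4.29 and -3.66 in the same order, and in the 100 kb to the right of the Rex1 deletion it was -4.24 and -4.13. All 3 stretches passed the test, with means of -3.23 (adjusted p = 1.47e-04), -3.97 (6.39e-05) and -4.18 (7.68e-06) in limma. The left flank differed by -0.70 (adjusted p = 0.0385), a call that was lost without either RexTrim clone (0.2321 without D3, 0.3652 without D8; the 15 alternatives gave 0.0184 to 0.3652). The right flank, from the domain to 45 Mb, differed by -0.62, which did not pass (adjusted p = 0.0616; alternatives 0.0303 to 0.4239).

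In windows of 50 kb, svim was called later than CAST in 26 of the 59 windows between 42 and 45 Mb and earlier in 4. Over the whole chromosome 5.36% of the 2521 windows were called later and 8.53% earlier (limma, adjusted p under 0.05). Later calls made up 38.6% of all calls, and 51.9% when columns were rescaled on far positions. Of the 26, 22 formed a run of 1150 kb, chr8:42700001-43850000, broken only by the window that holds the Rex1 deletion, which had too few positions to be scored, and the other 4 lay just beyond it, at chr8:43900001-44100000. The most negative window, chr8:43350001-43400000 next to the Rex1 deletion, had a mean of -4.24, against -0.89 at the left end of the run and -1.24 at its right end. The 4 windows with svim earlier lay at chr8:44750001-45000000, and 2 of them overlap the gene Fat1. Neighbouring windows are not independent: the differences of adjacent windows correlated with r = 0.98 along the chromosome.

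The CAST copy had an early peak in the RexTrim clones, as it had in the other 4. The lengths that follow include the window that holds the Rex1 deletion, which had too few positions to be scored. The CAST score was above 0 over 550 kb in D3 and 400 kb in D8, against 550 kb in Trim D9, 800 kb in Trim E9, 500 kb in Rex1 D1 and 650 kb in Rex1 E3. The svim score was below 0 over a run of 4300 kb in D3 (chr8:41650001-45950000) and 4200 kb in D8 (chr8:41700001-45900000). The same run was 4450 kb in Rex1 D1 and 3300 kb in Rex1 E3, so its length did not set RexTrim apart from Rex1. In Trim clones the svim score was above 0 over 650 kb in D9 and 750 kb in E9.

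The largest later-replicating difference of the chromosome was the one at the deletions. The 15 windows with the most negative mean svim minus CAST all lay between 42 and 45 Mb, from -4.24 to -1.88, and the next, at chr8:56000001-56050000 in Glra3, had -1.86. The D3 and D8 differences correlated with r = 0.76 over all 2521 windows and 0.71 outside 42-45 Mb, as a description over windows that share their clone and allele. Over windows more than 2 Mb from the deletions the median difference was 0.03.

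**Figure D2:**
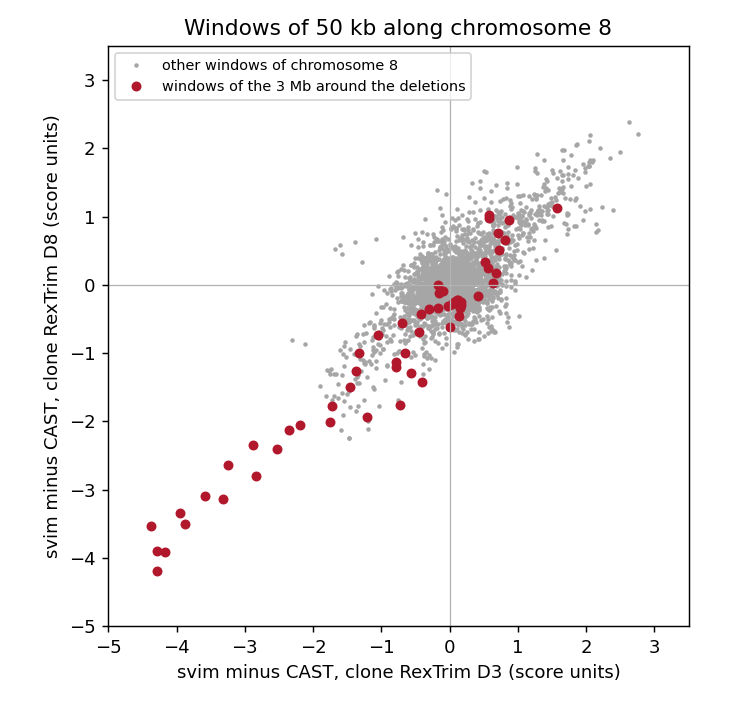
svim minus CAST of each 50 kb window of chromosome 8 in clone RexTrim D3 (horizontal axis) and clone RexTrim D8 (vertical axis), in score units. Windows of the 3 Mb around the deletions are in red, and the 15 most negative by the mean of both clones are all among them, reaching -4.24.

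Set against the single deletions, the RexTrim difference was the most negative of the 3 genotypes. The domain's svim minus CAST was -3.98 and -3.64 in RexTrim D3 and D8, 0.76 and -0.37 in Trim D9 and E9, and -2.38 and -2.97 in Rex1 D1 and E3. At all 64 positions of the domain both RexTrim clones lay below the other 4 clones. Chromosome-wide 5.71% of windows had both RexTrim clones below the other 4 and 7.34% had both above; in 42-45 Mb these were 23 and 0 of 59 windows, 16 of the 23 in a run at chr8:42600001-43450000. An exact two-sided permutation of clone labels, RexTrim against the other 4, gave p = 0.1333 for the domain, the smallest that 2 against 4 clones allow, so this test could not pass 0.05.

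**Figure D3:**
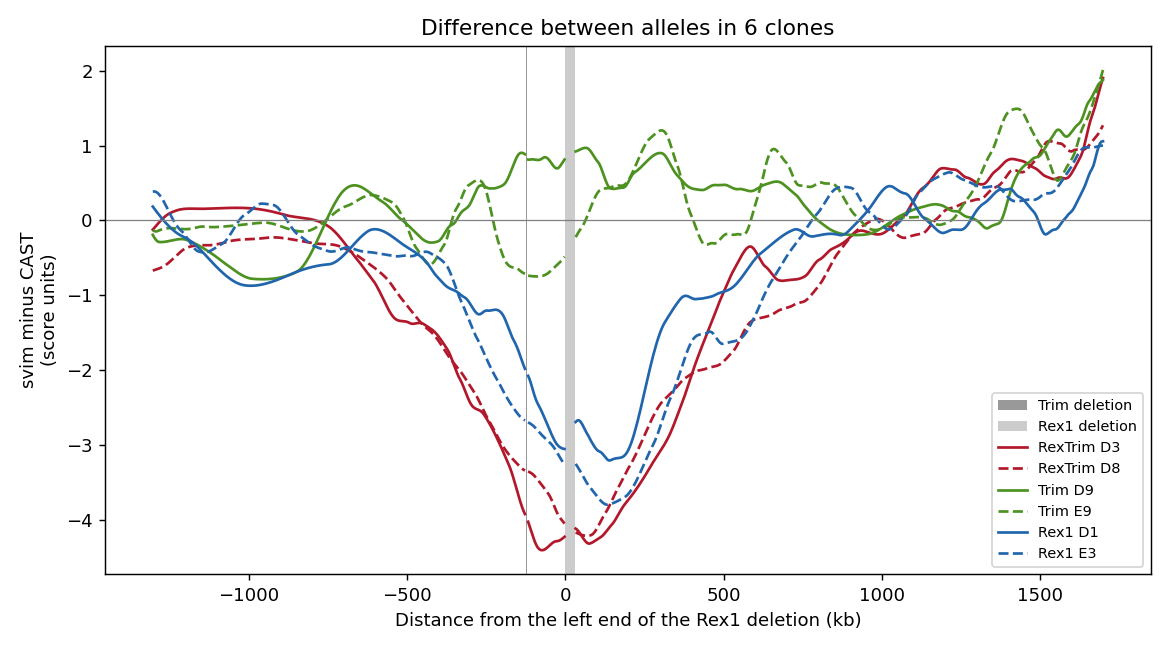
svim minus CAST (vertical axis, score units) in each of the 6 clones against the distance in kb from the left end of the Rex1 deletion; solid and dashed lines of 1 colour are the 2 clones of a genotype, and grey bands are the deletions. The RexTrim lines reach -4.41 in D3 and -4.21 in D8, the Trim lines stay above -0.79, and the Rex1 lines reach -3.21 in D1 and -3.80 in E3.

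The 2 comparisons share the RexTrim clones, and their values are given side by side. RexTrim minus Trim in the domain's svim minus CAST was -4.00 with a standard error of 0.40 (adjusted p = 5.35e-04), and RexTrim minus Rex1 was -1.13 with a standard error of 0.40 and a 95% interval of -2.02 to -0.24 (adjusted p = 0.4918, unadjusted p = 0.0177 in limma). The second did not pass, and its interval does not show that the genotypes are alike. Against Trim, 17 windows were called lower, 0.674% of those tested, all of them in 42-45 Mb, and none higher (0%). Against Rex1, no window was called in either direction (0%), with 214 windows at an unadjusted p under 0.05 in limma. Leaving out Trim E9 moved the called length against Trim to 2900 kb, with 41 called windows over 2 Mb away, against 850 kb with it, and leaving out RexTrim D3 or D8 moved it to 350 and 500 kb.

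Allele by allele, RexTrim differed from both single deletions on the svim copy. The domain's svim score was -2.60 and -2.94 in RexTrim D3 and D8, 1.61 and 1.58 in Trim D9 and E9, and -0.61 and -0.83 in Rex1 D1 and E3; the 3 pairs did not overlap. RexTrim differed from Trim by -4.37 (standard error 0.29, adjusted p = 7.18e-06) and from Rex1 by -2.05 (standard error 0.29, 95% interval -2.69 to -1.41, adjusted p = 0.0061). At all 64 domain positions the svim score of both RexTrim clones was below that of the other 4 clones, as in 19.0% of the windows of the chromosome. The stretch left of the Trim deletion differed from Rex1 by -2.12, the stretch between the deletions by -2.30 (both adjusted p = 0.0061) and the stretch right of the Rex1 deletion by -1.68 (adjusted p = 0.0106). The rise of the svim domain over its left flank was 0.16 and -0.18 in RexTrim, 3.69 and 3.35 in Trim, and 1.58 and 1.40 in Rex1. The svim domain thus stood above its flank in the Trim and Rex1 clones and level with it in the RexTrim clones.

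On the CAST copy no difference of RexTrim from either genotype passed, although against Rex1 the difference was -0.92 on CAST beside -2.05 on svim. Its domain score was 1.38 and 0.69 in RexTrim D3 and D8, 0.85 and 1.96 in Trim D9 and E9, and 1.77 and 2.14 in Rex1 D1 and E3. RexTrim minus Trim was -0.36 (95% interval -1.34 to 0.62, adjusted p = 0.9026), which turned to 0.19 without Trim E9, and RexTrim minus Rex1 was -0.92 (95% interval -1.90 to 0.06, adjusted p = 0.229), which passed when columns were rescaled on far positions (-1.66, adjusted p = 0.0284; alternatives 0.0284 to 0.6254). No window of the CAST copy was called against either genotype, with 100 at an unadjusted p under 0.05 against Trim and 608 against Rex1 in limma. Leaving out Trim E9 brought the called length against Trim to 1400 kb, and leaving out Rex1 E3 brought that against Rex1 to 6850 kb.

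**Figure D4:**
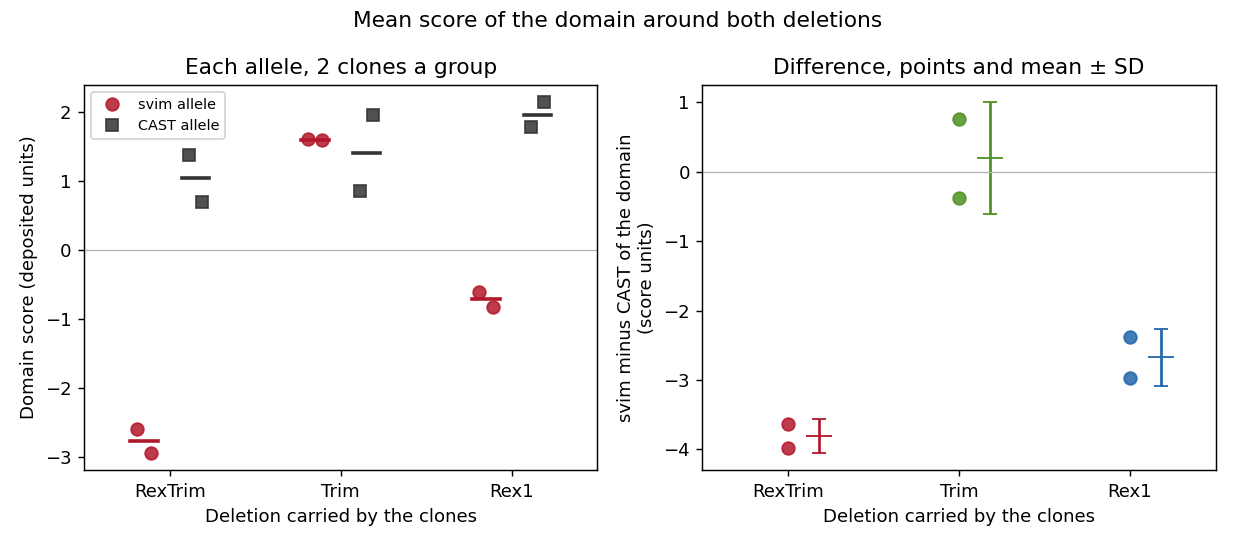
Mean score of the domain around both deletions by genotype: left, each clone's svim (circles) and CAST (squares) score with the mean of 2 clones as a bar; right, svim minus CAST of each clone with mean and SD (n = 2). RexTrim svim scores are -2.60 and -2.94, below the Rex1 svim scores of -0.61 and -0.83 and the Trim svim scores of 1.61 and 1.58.

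Scores of the Rex1 clones also stood apart elsewhere, which touches the comparison with them. The svim scores of the early control genes Calr and Farsa, which encode a chaperone of the endoplasmic reticulum and a tRNA synthetase subunit, were called lower in RexTrim than in Rex1, with differences of -1.11 and -1.06 (adjusted p = 0.0437 and 0.0455). The median difference over windows more than 2 Mb away was -0.26 for svim and -0.32 for CAST. Relative to that median the svim domain differed by -1.79, and under rescaling on far positions, which moved the median to -0.99, by -1.82. Against Rex1 svim was called lower in 36 windows (1.43%), 8 of them in 42-45 Mb, and higher in 129 (5.12%), so calls outside the region were in both directions. The called length of 8250 kb was 2850 kb without RexTrim D8 or either Trim clone, 750 kb without Rex1 D1 and 19000 kb without Rex1 E3. Rescaling made 94.3% of calls lower where 21.8% had been, while the domain passed under all 13 alternatives (adjusted p 2.89e-06 to 0.0479). Against Trim, svim was called lower in 19 windows (0.754%), all in 42-45 Mb, and the median far difference was -0.09.

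Among the genes, the 3 at the deletions were later on the svim copy in RexTrim. Zfp42, which has 1 scored position outside the deletion, had svim scores of -2.62 in D3 and -2.98 in D8 and CAST scores of 1.60 in D3 and 1.07 in D8. Its svim minus CAST was -4.23 and -4.05 in RexTrim D3 and D8, 0.81 and -0.48 in Trim D9 and E9, and -3.05 and -3.26 in Rex1 D1 and E3. Both RexTrim clones were below all others, as in 5.71% of the windows of the chromosome. The mean of -4.14 (standard error 0.29) passed in limma (adjusted p = 1.64e-04 over 1677 genes).

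Triml2 had svim scores of -2.53 in D3 and -2.85 in D8 and CAST scores of 1.53 and 0.50 in the same order. Its svim minus CAST was -4.06 and -3.36 in RexTrim, 0.81 and -0.74 in Trim, and -2.10 and -2.70 in Rex1. Triml1, which overlaps it and lies mostly left of the Trim deletion, had -3.64 and -3.26 in RexTrim, 0.82 and -0.66 in Trim, and -1.74 and -2.58 in Rex1. For either gene both RexTrim clones were below the other 4, as in 5.71% of the windows of the chromosome. Both genes passed for svim minus CAST in RexTrim (limma, adjusted p = 7.95e-04 for Triml2 and 8.81e-04 for Triml1). The scores of genes and windows rest on shared positions and are no separate support.

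The 4 ADAM genes on the right side were also later on svim in RexTrim, with more negative values for the pair nearer to the Rex1 deletion. Adam26b, 187.5 kb away, had svim minus CAST of -3.61 in D3 and -3.15 in D8, and Adam26a, 235.9 kb away, had -3.28 and -2.68. Adam34l and Adam34, which overlap at 292.5 and 318.0 kb, had means of -2.36 and -2.38, and the predicted gene Gm5347 inside the span of Adam34l had -2.18. All 5 genes passed in RexTrim (limma, adjusted p between 1.64e-04 and 9.69e-04). The Rex1 clones D1 and E3 had -2.81 and -3.51 at Adam26b and -1.93 and -3.06 at Adam26a, which overlapped the RexTrim values. At Adam34l Rex1 D1 and E3 had -1.11 and -2.05, against -2.52 and -2.19 in RexTrim D3 and D8. The Trim clones were above 0 at all 5 genes. In D3 the CAST score was 0.62 at Adam26b and -0.67 at Gm5347, while the svim scores stayed between -2.99 and -2.94. Their relatives Adam20, Adam25 and Adam39, more than 2.3 Mb to the left of the deletions, had means of -0.35, -0.26 and -0.42 and did not pass (adjusted p = 0.5773, 0.7063 and 0.4669).

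**Figure D5:**
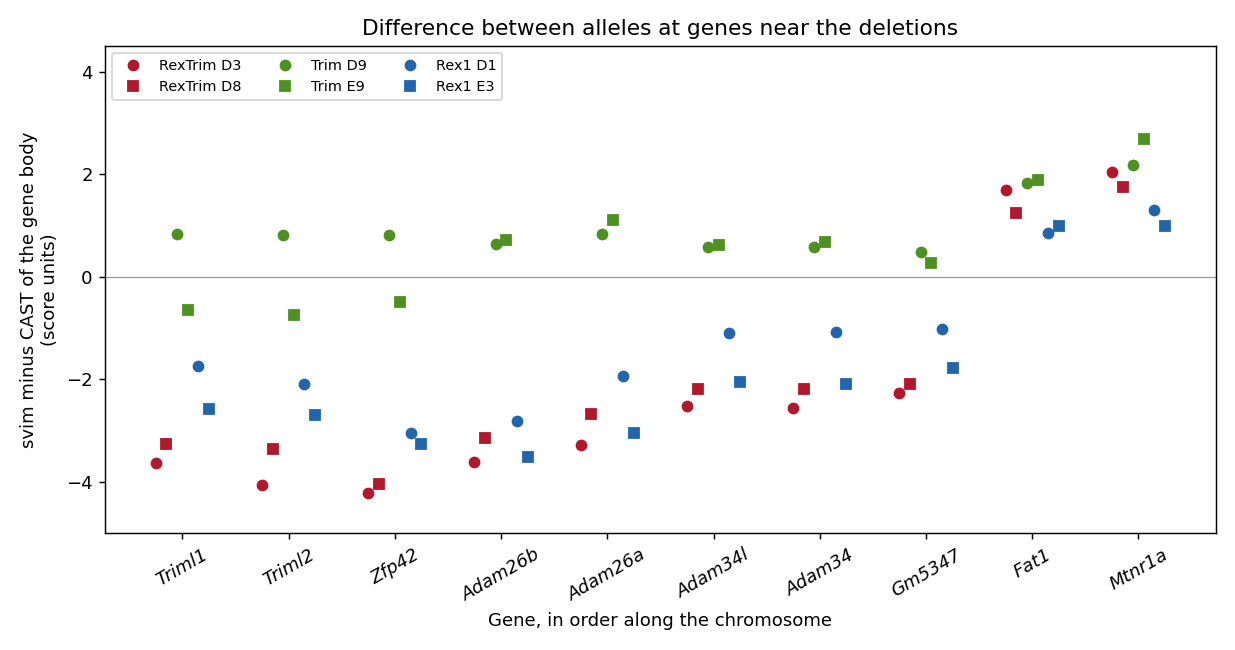
svim minus CAST of the gene body (vertical axis, score units) for 10 genes in order along the chromosome, with 1 point for each of the 6 clones. In the RexTrim clones the first 8 genes lie between -4.23 and -2.10, while Fat1 and Mtnr1a lie above 0 in all 6 clones.

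In counts, 12 of the 13 genes within 42-45 Mb were called later on svim in RexTrim, and none earlier. Of all 1677 genes 5.13% were called later and 6.80% earlier. The exception was the noncoding RNA gene Gm30397 (0.77 in D3 and 0.67 in D8, adjusted p = 0.0546), named here after its values were seen. The 3 genes at the deletions had a median svim minus CAST of -3.71 and the 7 ADAM genes one of -2.36, against 0.01 over all genes. Fewer genes of the chromosome were called when either RexTrim clone was left out. The 8 protein-coding genes called later in the region kept their calls without D8. Without D3 they lost them, as did all other called genes of the chromosome, so the loss was not particular to these 8. The effect sizes changed little: svim minus CAST of Zfp42 was -4.05 without D3 and -4.23 without D8, and that of Triml1 was -3.26 and -3.64 in the same order.

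Against Trim, 11 of these 13 genes were called lower in svim minus CAST, and 11 in the svim score, 0.656% of genes in each case. Zfp42 differed by -4.30 in svim minus CAST (adjusted p = 0.0021), Triml2 by -3.74 (0.0087) and Adam26b by -4.06 (0.0010). Against Rex1, no gene was called in svim minus CAST, with 119 at an unadjusted p under 0.05 in limma. For the svim score alone, 4.83% of genes were called lower than in Rex1 and 4.47% higher, and 5 of the 13 were lower. Triml1 differed by -2.24 and Triml2 by -2.34 (both adjusted p = 0.0024), and Zfp42 differed by -2.14 (0.0098). Adam26b and Adam26a, with differences of -0.87 and -0.85, did not pass (adjusted p = 0.0822 and 0.1019), so the svim scores of RexTrim and Rex1 clones were closer to each other right of the Rex1 deletion than at the Triml genes, a contrast that was not tested as such.

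At the borders of the region the alleles differed in other ways. Left of it, Pcm1, a protein of centriolar satellites, Asah1, acid ceramidase, and Frg1 were early on both alleles in RexTrim, with svim minus CAST means of -0.10, -0.21 and -0.34 that did not pass. To the right, 7 of the 8 listed flank genes were called earlier on svim, against 6.80% of all genes, among them the atypical cadherin gene Fat1 (1.69 in D3 and 1.24 in D8) and the melatonin receptor gene Mtnr1a (2.04 and 1.74). Fat1 was 1.82 and 1.88 in Trim and 0.85 and 0.98 in Rex1, and Mtnr1a was 2.17 and 2.69 in Trim and 1.29 and 1.00 in Rex1. The svim copy of these genes was earlier in all 6 clones, and for neither gene did the difference of RexTrim from Trim (adjusted p = 0.9266 for each) or from Rex1 (0.7293 for Fat1 and 0.6137 for Mtnr1a) pass. The other 5 called, Cyp4v3, Klkb1, F11, Fam149a and Tlr3, had means of 0.76 to 1.70. The eighth, Sorbs2, had a mean of -0.36 that did not pass (adjusted p = 0.3527). None of the 6 late and 7 measured early control genes was called.

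Differences between the alleles far from the deletions were present in the other genotypes too. More than 2 Mb from the deletions 108 windows were called later on svim in RexTrim and 204 earlier, of 2438. The most negative window, chr8:56000001-56050000 in the glycine receptor subunit gene Glra3, had svim minus CAST of -1.48 and -2.25 in RexTrim D3 and D8, -1.05 and -2.25 in Trim D9 and E9, and -1.10 and -1.97 in Rex1 D1 and E3. The most positive window, chr8:116350001-116400000, had 2.62 and 2.39 in RexTrim, 2.62 and 2.77 in Trim, and 2.27 and 2.35 in Rex1. All 6 clones had the same sign at both places. The same holds for the carboxylesterase genes Ces1h and Ces1f, with RexTrim means of -1.70 and -1.65, and for the zinc finger gene Zfp330, with 1.95. The far calls depended on both clones: the called length of the chromosome was 17500 kb, 2050 kb without D3 and 3900 kb without D8, with 22 far windows called without D3 and 55 without D8. Between 42 and 45 Mb the number of windows called later was then 16 without D3 and 18 without D8.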

How the data were processed

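Per the labels' protocols, early and late S-phase DNA labelled with BrdU was immunoprecipitated and sequenced. The deposited score contrasts the fractions at each position and allele. Per the submitters' processing notes Bowtie2, SAMtools and bedtools were used with build mm10; versions, allele assignment, smoothing, log base and centring are not given in the labels or the file. Every column had the same interquartile range, so differences are in scaled units and not in hours.

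From the scores, means were taken over windows of 50 kb with at least 50% of positions, regions and gene bodies (RefSeq, GRCm38.p6). svim minus CAST was taken within each clone, which makes the clone a block, and fitted with limma 3.58.1 (R 4.3.3) over all 6 clones; each allele was fitted likewise. Tests were two-sided, Benjamini-Hochberg adjusted over all windows and regions, or all genes, with a threshold of 0.05. Exact permutations used scipy 1.17.1. The fit was tested on simulated data in which windows were drawn independently. Adjacent windows are correlated here, so that test could not give the rate of false calls among them. Named genes were list members, protein-coding genes overlapping 42-45 Mb, and the 5 genes each way furthest from 0 elsewhere, of which a part is described. Members and lists were chosen with earlier results of these data known. The values of 1 control gene are not reported here.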

Additional observations from a re-analysis of the deposited data

Results flagged for a closer look

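The within-clone difference svim minus CAST differed between RexTrim and Trim clones by a test of that difference (limma, RexTrim minus Trim). It was -4.00 for the domain, -3.30 for the 100 kb left of the Trim deletion, -4.03 for the stretch between the deletions and -4.68 for the 100 kb right of the Rex1 deletion, with adjusted p of 5.35e-04, 0.0028, 0.0011 and 6.89e-05. Among genes it was -4.30 for Zfp42, -3.53 for Triml1, -3.74 for Triml2, -4.06 for Adam26b, -3.95 for Adam26a, -2.96 for Adam34l, -3.01 for Adam34 and -2.56 for Gm5347, with adjusted p between 0.0010 and 0.0095. These 12 values average overlapping or neighbouring positions of the same 4 clones and are not separate results.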

How the results depend on the processing

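The RexTrim svim minus CAST difference of the domain and of its 3 parts passed under all 15 alternatives (domain -3.98 to -3.50, adjusted p 1.12e-08 to 0.0198). The domain's difference from Trim passed under all 13 run for it, for svim minus CAST (adjusted p 7.41e-07 to 0.0489) and for svim (1.78e-15 to 6.41e-04), and its svim difference from Rex1 did too; the svim minus CAST difference from Rex1 passed under none (0.1731 to 0.951). With no replicate block, the alleles being fitted as separate samples rather than paired within a clone, the called length for RexTrim svim minus CAST was 2350 kb against 17500 kb, and 38 genes were called against 200; with the RexTrim clones alone in the fit, 342 were. Leaving out a clone, which for its genotype assumes that the lone clone varies like the others, gave 2050 to 22400 kb and 0 to 281 genes. For RexTrim minus Trim in svim minus CAST, the called length was 850 kb, 550 kb after quantile normalization and 350 to 2900 kb with a clone left out. For RexTrim minus Rex1 in svim it was 8250 kb, 78650 kb rescaled on far positions, 29500 kb with trend and robust set, and 750 to 19000 kb with a clone left out. For CAST, RexTrim minus Rex1 of the domain became -1.66 (adjusted p = 0.0284; range 0.0284 to 0.6254) when rescaled, a setting under which the median of far windows was -1.07 against -0.32, and the called length was 57050 kb when rescaled, 17850 kb with trend and robust set, and 6850 kb without Rex1 E3, against 0 kb. RexTrim minus Trim of the CAST domain was -0.36, -0.92 to 0.19 with a clone left out, the positive value without Trim E9, and the called length without it was 1400 kb against 0 kb. The left flank also lost its call after quantile normalization (0.092), without either Rex1 clone (0.0575) and with no block (0.1627), and the right flank gained one when rescaled (0.0303) and in windows of 100 kb (0.0483). Fat1 lost its call without D3 (0.0783). The cause was not tested for any of these. Read depth is unknown, so its part in the spread between clones cannot be given.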

Other observations

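Clone Trim D9 stood apart at chr8:20240000-21570000, where svim minus CAST was below -3 at 267 positions with a median of -4.77, while the median of the other 5 clones over the same positions was 1.48. Its CAST score there had a median of 4.07 and its svim score one of -0.64. The segment lies over 2 Mb from the deletions and outside the domain, but its positions enter the rescaling on far positions, the quantile normalization and the fit over all windows.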
